A study of Mus musculus with 51 samples.

Results

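This experiment measured how targeting Uba1 changed the response of cultured cells to interferon-gamma (IFN-γ). RNA was sequenced from the Myc-CaP line, mouse prostate cancer cells driven by a Myc transgene. Chosen by their labels, 8 of the 51 libraries of the series belong to it, as 4 groups of 2: cells with a non-targeting control guide (NC, labeled WT) given PBS, the same cells given IFN-γ, cells with a guide against Uba1 (sgUba1, labeled Uba1-depletion) given PBS, and those cells given IFN-γ. The labels do not say which of the study's Uba1 guides was used. They also leave out the dose and duration of IFN-γ, for which the study states a single setting, shared by its cell experiments. By the study's methods, edited lines were grown from sorted single cells, so the effect of the guide and of the clone cannot be told apart, and nothing in the labels says whether the 2 libraries of a group were separate cultures. p-values therefore measure the spread between these libraries, which may be technical.

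IFN-γ is the cytokine by which T cells and NK cells make tumor cells visible to the immune system. It binds a receptor whose chains carry the kinases JAK1 and JAK2, and in the nucleus the signal acts on GAS elements in the DNA. It induces IRF1, which acts on ISRE elements, and the response includes GTPases of the GBP and IRG families, the immunoproteasome and peptide-loading genes. UBA1 activates ubiquitin at the cost of ATP and hands it to conjugating enzymes, from which ubiquitin ligases attach it to other proteins, many of which are then degraded. The comparison described here asks which genes responded differently to IFN-γ in cells in which Uba1 had been targeted.

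The quantity of interest was the interaction, the log2 fold change with IFN-γ in sgUba1 cells minus that in NC cells. It was tested for all 15530 genes that passed the filter on low counts, with the quasi-likelihood F test of edgeR, p-values were adjusted by the Benjamini-Hochberg method, and a gene was called at an adjusted p under 0.05. Levels are given as CPM, a gene's share of the library's counts scaled to a common total, which compare libraries for 1 gene and not genes with each other. With 4 groups of 2, a difference between groups could be seen only where libraries of a group lay close together. Total counts ran from 26768564 to 38032395 per library.

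The guides designed against Uba1, from the study's supplementary list, are shown because they locate the intended lesion. Capitals mark the PAM, which is genomic and not part of the guide, and the third sequence is the non-targeting guide, which matched no coding transcript of Uba1.
sgUba1 1: taccaatgtcctcctcccgaAGG
sgUba1 2: tagccgtggtatcaagctagTGG
Non-targeting control: acgtgtaaggcgaacgcctt
On GRCm38, the first lies on the minus strand at chrX:20669136-20669155, within coding sequence in exon 5 of 26 of Uba1. The second lies on the plus strand at chrX:20670263-20670282, within coding sequence in exon 6.

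Uba1 RNA was lower in the sgUba1 line. It measured 533 and 526 CPM in NC cells and 585 and 600 CPM in NC cells with IFN-γ. In sgUba1 cells it measured 295 and 283 CPM, and 269 and 275 CPM with IFN-γ. The sgUba1 libraries lay below every NC library (log2 difference without IFN-γ -0.87, adjusted p = 3.71e-07), and the RNA level says nothing of the protein. In bulk RNA, fewer cells that express a gene and less of its RNA per cell cannot be told apart. The interaction for Uba1 itself was -0.25 ± 0.06 (SE) and narrowly missed the threshold (adjusted p = 0.0513). It passed in 7 of 28 alternatives, DESeq2 and limma-voom among them, and not with offsets for GC content (adjusted p = 0.306).

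The cells matched their label in part. Myc ran from 459 to 677 CPM and Hoxb13, a prostate lineage factor, from 13.4 to 20.1 CPM. The epithelial markers Cdh1, at 0.07 to 0.31 CPM, and Epcam, at 0 or 1 count per library, were close to absent, while the 12 genes of the prostate epithelial and Myc-CaP list together summed to 4874 to 5355 CPM. Markers of other cells were low: the summed level was 3.80 to 8.17 CPM for 16 T and NK cell genes, of which 9 were at 0 in every library, 12.6 to 14.8 CPM for 14 myeloid genes, 14.1 to 18.6 CPM for 10 fibroblast genes and 1.40 to 2.12 CPM for 10 endothelial genes. Ptprc, the pan-leukocyte CD45 gene, had 0 to 3 counts per library.

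IFN-γ acted on both lines. In NC cells 603 genes were called (3.88% of those tested), 470 higher and 133 lower, and in sgUba1 cells 443 genes (2.85%), 186 higher and 257 lower. The interaction was positive and called for 103 genes (0.663%) and negative and called for 617 (3.97%). A called gene was classed as amplified where NC cells responded and the interaction had the same sign, damped where it had the opposite sign, reversed where sgUba1 cells responded the other way, and new where the response was called only in sgUba1 cells. By these definitions 8 genes were amplified, 221 damped, 23 reversed and 181 new, and 287 could not be placed because neither line's effect was called alone. The NC effect enters the interaction with a minus sign, so the definitions by themselves favor damped over amplified genes.

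The 617 negative interactions had a median of -0.38 and followed base composition. With genes ranked by transcript GC content, the median interaction fell from 0.18 in the lowest decile to -0.27 in the highest, where 245 of the 617 lay. NC cells showed the opposite trend with IFN-γ, from -0.11 to 0.11, and sgUba1 cells one from 0.07 to -0.16. Offsets that removed a smooth GC trend from each library, an alternative chosen after seeing the data, left 35 positive calls (0.225%) and 23 negative calls (0.148%). Of the genes called without offsets, 31 of the 103 positive and 23 of the 617 negative were also called with them, and 103 and 614 kept their sign. The description below starts from the calls without offsets, and for the genes described in full it says whether the call held with them. How much of the trend arose in library preparation and how much in the cells was not tested.

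**Figure D1:**
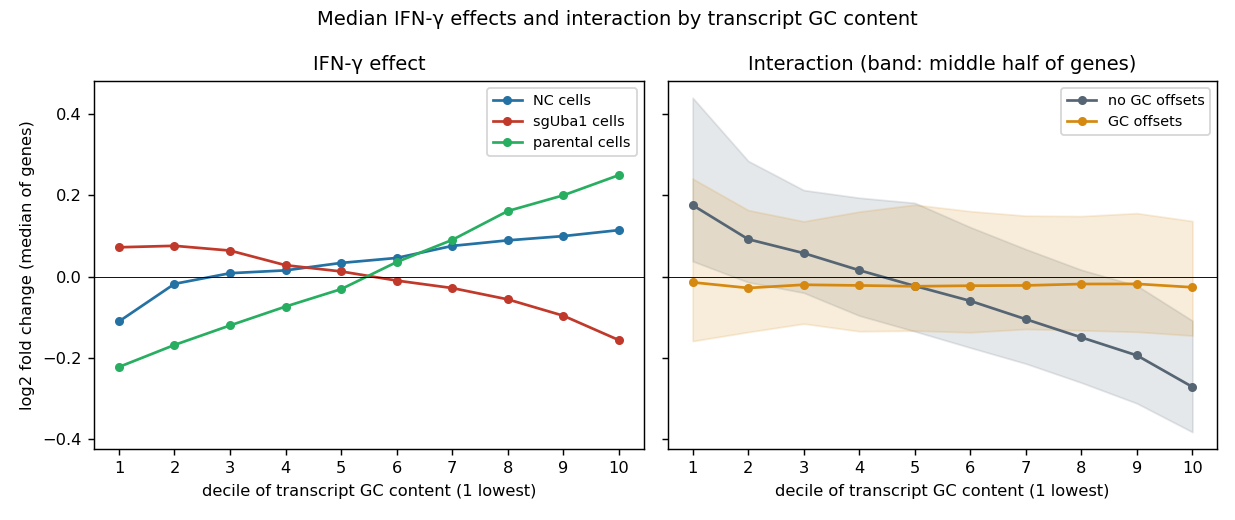
Median log2 fold change with IFN-γ in NC, sgUba1 and parental cells (left) and median interaction with the middle 50% of genes as a band (right), by decile of transcript GC content. The NC and sgUba1 lines slope in opposite directions, and the parental line, from -0.22 to 0.25, slopes as NC does. The interaction runs from 0.18 to -0.27 without GC offsets and stays between -0.01 and -0.03 with them.

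The number called depended on single libraries. Without NC replicate 1 it rose from 720 to 1972 and without NC replicate 2 to 2622, while without any one of the other 6 libraries it lay between 14 and 103. A set of 12 genes kept its call in each of the 8 fits that left out 1 library, 6 with a positive interaction (Mt2, Ido1, Irgm1, Irf1 and Ero1l among them) and 6 with a negative one (Cyp1b1, Slc14a1, Spon1, Anpep, Padi2 and the pseudogene Gm4202). Of these, 8 also kept it under the GC offsets in the full fit and in each leave-one-out fit, among them Mt2, Ido1, Irgm1, Irf1, Spon1, Slc14a1 and Cyp1b1. Ido1, Irgm1 and Irf1 are interferon targets with a larger response in sgUba1 cells. Mt2, Spon1, Slc14a1 and Cyp1b1 are outside the interferon lists and responded in NC cells and then not, or the other way, in sgUba1 cells.

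**Figure D2:**
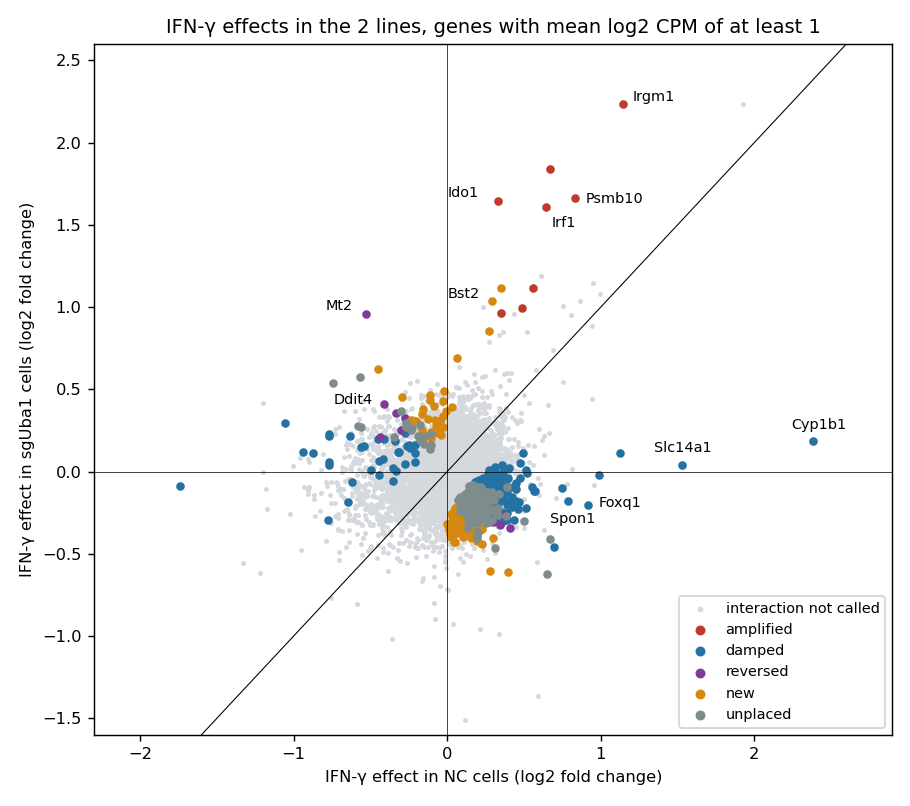
Log2 fold change with IFN-γ in NC cells (x axis) and in sgUba1 cells (y axis) for the 11108 genes with a mean log2 CPM of at least 1 that lie within the axes; 7 genes, Gm4202 and Tap1 among them, lie outside. Colors give the class, the diagonal marks equal effects, and the amplified interferon genes lie above it while Cyp1b1 and Slc14a1 lie far to the right near 0 on the y axis.

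All 8 amplified genes belong to the interferon lists, and all 8 rose with IFN-γ in both lines, more so in sgUba1 cells. Irf1, the factor that carries the second wave of the response, rose from 23.997 and 24.47 to 37.6 and 38.1 CPM in NC cells. In the sgUba1 line it rose from 22.6 and 20.3 to 64.1 and 66.8 CPM. The fold change was 1.56 in NC and 3.05 in sgUba1 cells (interaction 0.96 ± 0.09, adjusted p = 8.90e-04), from unstimulated levels that did not pass the test of a difference (adjusted p = 0.0742).

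Irgm1, a GTPase that directs vacuole and autophagy responses to pathogens, rose from 9.03 and 9.90 to 20.7 and 21.3 CPM in NC cells. The sgUba1 level started higher, at 15.6 and 13.8 CPM, and reached 68.3 and 69.8 CPM. The interaction was 1.09 ± 0.11 (adjusted p = 0.0013).

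Ido1, the tryptophan-degrading enzyme that restrains T cells, differed from the others in its levels. NC cells held 14.6 and 14.4 CPM and reached 17.3 and 19.1 CPM with IFN-γ, a 1.26-fold rise. sgUba1 cells held only 4.23 and 4.40 CPM and reached 13.2 and 13.8 CPM, a 3.13-fold rise (interaction 1.31 ± 0.12, adjusted p = 8.90e-04). Its relative response was thus larger, yet the stimulated level stayed below that of NC cells (log2 difference -0.43, adjusted p = 0.001).

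The antigen-processing genes followed the pattern of Irf1. Psmb10, a catalytic subunit of the immunoproteasome, rose 1.78-fold in NC cells, from 9.44 and 9.77 to 16.6 and 17.7 CPM, and 3.17-fold in sgUba1 cells, from 9.93 and 9.93 to 32.3 and 30.6 CPM (interaction 0.83 ± 0.11, adjusted p = 0.0072). Psme2, a subunit of the PA28 proteasome activator, rose from 33.8 and 31.1 to 45.5 and 49.9 CPM in NC cells and from 35.9 and 36.3 to 79.8 and 76.8 CPM in sgUba1 cells (interaction 0.56 ± 0.09, adjusted p = 0.0158). For both genes the unstimulated levels did not pass the test of a difference (adjusted p = 0.721 and 0.0992), and the stimulated libraries did not overlap. Erap1, which trims peptides in the endoplasmic reticulum for MHC class I, rose from 23.7 and 23.5 to 33.2 and 33.0 CPM in NC cells and from 35.1 and 34.9 to 71.0 and 68.7 CPM in sgUba1 cells (interaction 0.51 ± 0.08, adjusted p = 0.0144).

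Parp9, a member of the PARP family of ADP-ribosyltransferases, rose from 13.1 and 12.4 to 17.2 and 15.4 CPM in NC cells and from 18.2 and 17.4 to 34.8 and 34.9 CPM in sgUba1 cells (interaction 0.62 ± 0.11, adjusted p = 0.0192). With GC offsets 5 genes were classed as amplified, Irf1, Irgm1, Psmb10 and Psme2 among them. Ido1 and Parp9 kept a called interaction but moved to the new class, and Erap1 missed the threshold (adjusted p = 0.0601). With 1 library left out, Parp9 lost its call in 6 of the 8 fits, Psme2 and Erap1 in 5 each and Psmb10 in 2. For Psmb10 these were the fits without NC_IFNg replicate 1 or 2, with an interaction of 0.78 or 0.87.

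**Figure D3:**
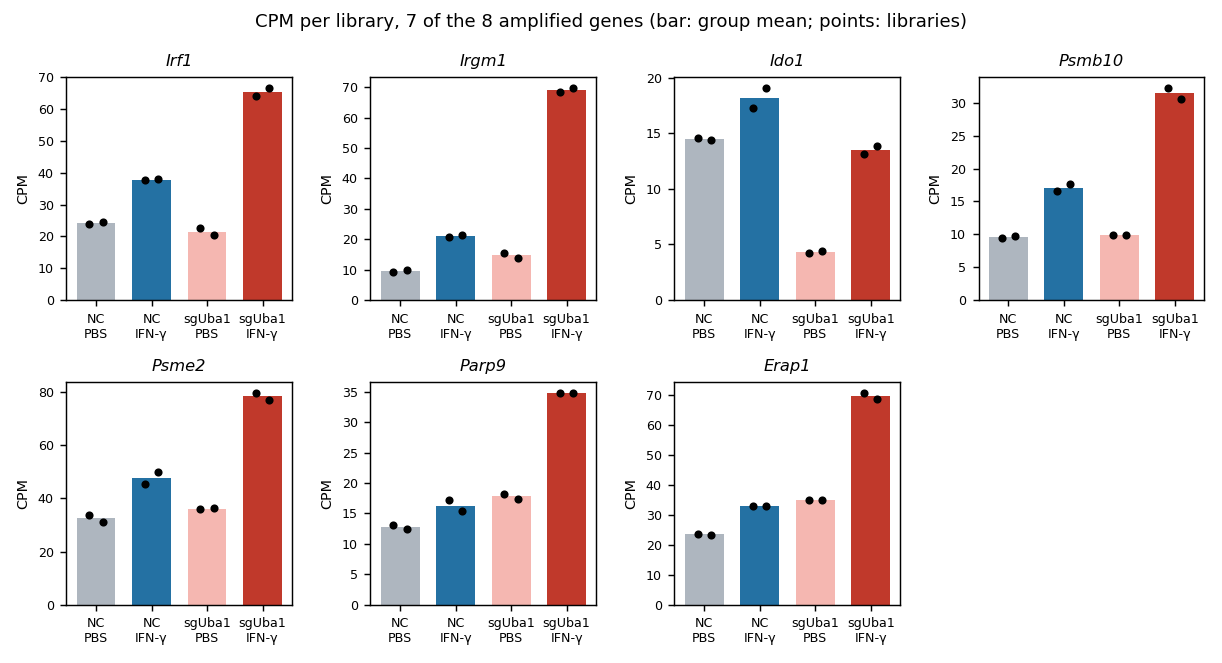
Level in CPM (y axis, each panel on its own scale from 0) of 7 of the 8 amplified genes in the 4 groups, with bars for the group mean and points for the 2 libraries. In 6 panels the stimulated sgUba1 libraries stand above all others, while in the Ido1 panel the unstimulated sgUba1 level of 4.23 and 4.40 CPM is the lowest and the stimulated level stays under that of NC cells.

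Further interferon genes passed the test in sgUba1 cells and missed it in NC cells. Bst2, or tetherin, which holds budding virus at the cell surface, measured 12.5 and 11.01 CPM in NC cells and 13.9 and 14.8 CPM with IFN-γ, an effect that missed the threshold (adjusted p = 0.0734). In sgUba1 cells it rose from 11.9 and 12.1 to 24.7 and 24.5 CPM (interaction 0.74 ± 0.11, adjusted p = 0.0144). Psme1, the partner subunit of Psme2 in PA28, measured 21.5 and 23.1 CPM in NC cells and 26.0 and 27.8 CPM with IFN-γ, against 23.04 and 26.4 and then 44.5 and 44.8 CPM in sgUba1 cells (interaction 0.58 ± 0.11, adjusted p = 0.0212). Both were also called with GC offsets, and each lost its call in 5 of the 8 fits that left out 1 library.

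Tapbpl, or TAPBPR, a peptide editor of MHC class I, went from 4.09 and 4.12 to 5.32 and 5.17 CPM in NC cells and from 5.58 and 6.71 to 13.0 and 13.6 CPM in sgUba1 cells (interaction 0.76 ± 0.16, adjusted p = 0.0315). With GC offsets it missed the threshold (adjusted p = 0.06), and it lost its call in 6 of the 8 fits that left out 1 library. Bst2, Psme1 and Tapbpl all rose in parental Myc-CaP cells given IFN-γ (log2 0.85, 1.12 and 1.27), so "new" describes these lines and not the gene's ability to respond.

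Snx10, a sorting nexin, Cox6c, a subunit of cytochrome c oxidase, Zfp738, a zinc finger gene, and the predicted gene Gm7324 were the other new genes with a positive interaction named by the rule, with values of 0.55 to 1.08. Their stimulated sgUba1 libraries lay above both stimulated NC libraries in each case. Of these, Gm7324 alone was also called with GC offsets.

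The strongest interferon targets could not be tested well for a change in fold, because they were almost silent before stimulation. A set of 10 genes, chosen after their values were seen, had at most 3 counts in both unstimulated NC libraries: the GTPases Gbp2, Gbp3, Igtp, Irgm2, Tgtp1, Tgtp2, Iigp1 and Ifi47 and the immunoproteasome subunits Psmb8 and Psmb9. The interaction was called for 0 of the 10 by edgeR, DESeq2 and limma-voom, 1 of them (Psmb9) had an unadjusted p under 0.05 in edgeR with a negative sign, and fitted folds from so few counts depend on the prior count. The stimulated levels could be compared directly. All 10 were higher with IFN-γ in sgUba1 than in NC cells, by 2.92 to 8.98 times, where 17% of all genes tested were called higher. A stimulated level includes any difference between the lines before stimulation, which is given below. These genes could pass the count filter only through groups where they were high, and they were picked with values known. The 10 of 10 are therefore a description and no independent test. Fitted interactions were negative for Psmb9 (-3.41), Ifi47 (-1.53), Psmb8 (-0.95) and Tgtp1 (-0.20), and positive for the rest.

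Igtp, or Irgm3, which guards host membranes against vacuolar pathogens, had 1 and 2 counts in NC cells and 75 and 99 with IFN-γ. In sgUba1 cells it had 11 and 9 counts, and 808 and 747 with IFN-γ, or 22.1 and 20.8 CPM against 2.46 and 2.72 CPM in stimulated NC cells. Gbp2, which coats and ruptures pathogen vacuoles, had 1 and 0 counts in NC cells, 60 and 78 with IFN-γ, 2 and 0 in sgUba1 cells and 500 and 463 with IFN-γ. Against a floor of 3 counts per library, the rise in NC cells was at least 24.9-fold for Igtp and at least 19.7-fold for Gbp2.

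Neither gene passed 11 counts in an unstimulated library of either line, and the stimulated lines lay far apart. Irgm2 went from 2 and 3 to 84 and 106 counts in NC cells and from 12 and 8 to 586 and 572 counts in sgUba1 cells. Psmb8, with 0 and 2 counts, reached 31 and 44 in NC cells, and from 13 and 17 it reached 223 and 245 in sgUba1 cells. Psmb9, with 0 counts in both NC libraries, reached 27 and 35, and from 9 and 8 it reached 216 and 197 in sgUba1 cells.

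Psmb8, Psmb9, Igtp, Irgm2 and Tgtp1 were above 3 counts in both unstimulated sgUba1 libraries. Each was called higher there than in unstimulated NC cells (log2 difference 1.66 to 6.03, adjusted p from 0.0020 to 0.0338 in edgeR). For these genes the lines thus differed before IFN-γ as well as with it. At or under 3 counts in unstimulated sgUba1 cells too were 4 of the 10 genes (Gbp2, Ifi47, Iigp1 and Tgtp2). IRG and GBP genes have near-identical relatives, Tgtp1 and Tgtp2 above all, so the split of reads among them is uncertain.

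**Figure D4:**
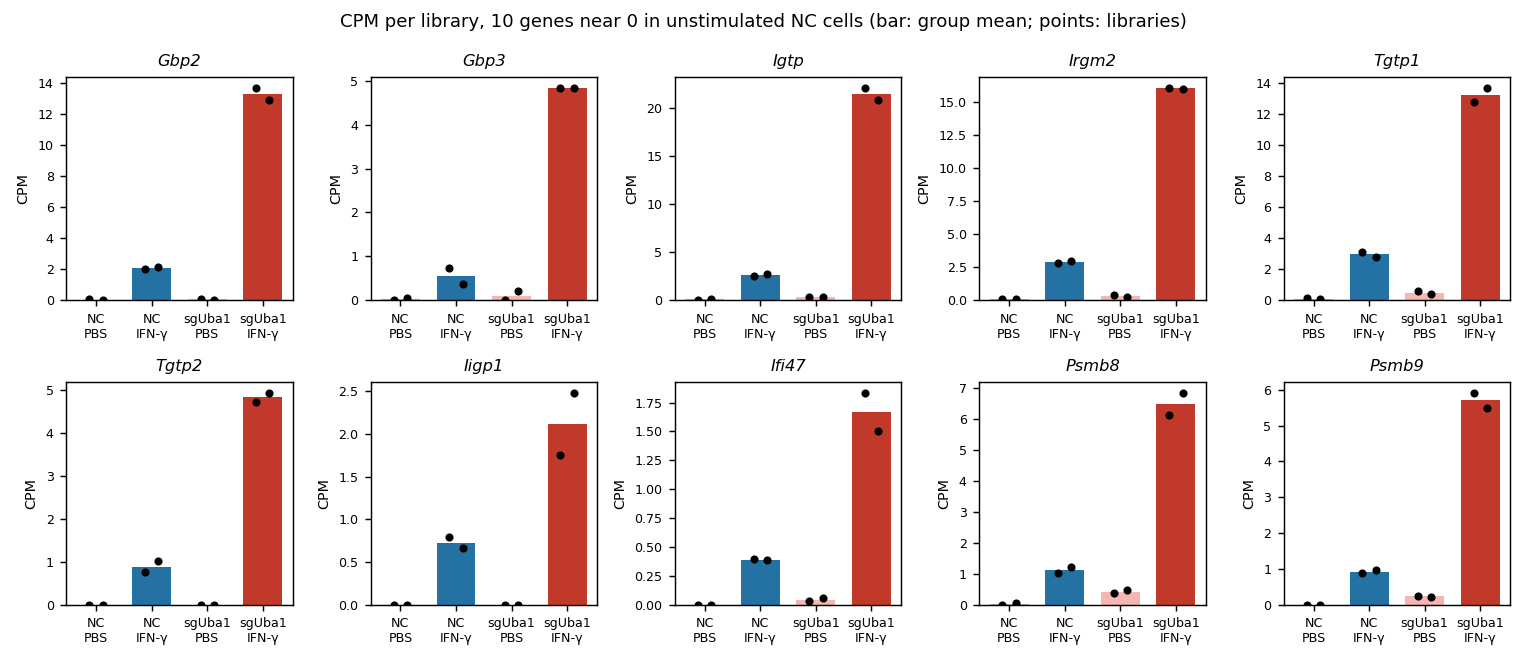
Level in CPM (y axis, each panel on its own scale from 0) of 10 interferon targets that were near 0 in unstimulated NC cells, with bars for the group mean and points for the 2 libraries. In each panel the stimulated sgUba1 libraries stand above the stimulated NC libraries, by 2.92 to 8.98 times.

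Promoter sequence was read for the genes that matched the RefSeq promoter table (GRCm38.p6; 250 bases before to 50 after the start). Windows were searched on both strands for GAS, written TTCNNNGAA, and for ISRE, written as a pair of GAAA runs with 2 bases between them, and matches may overlap. GAS was present in 9.55% of all 27025 promoters listed, ISRE in 3.99% and either in 12.9%. Of the 5 amplified genes with a promoter listed, 3 held a match, as did 18 of 38 genes that rose more than 2-fold with IFN-γ in parental Myc-CaP cells (47.4%), 6 of 24 positive genes called with and without GC offsets (25%) and 0 of 12 negative ones. The share was 11.7% of the tested genes with a promoter listed. Among genes with a negative interaction it was 4 of 145 damped (2.76%), 5 of 125 new (4%), 27 of 217 unplaced (12.4%) and 4 of 13 reversed genes (30.8%), and among damped genes with a positive interaction, none of them on the interferon lists, it was 8 of 29 (27.6%). A match is a description of letters and not of binding.

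The windows below are the 250 bases before the start. Irf1 and Bst2, with a called interaction, and Igtp and Irgm2, without one but with a higher stimulated level, were picked because they hold matches and show what the motifs look like. Cyp1b1, which has none of these letters, is shown as the damped gene with the largest negative interaction named here. They are examples and not a comparison: the 250 bases listed for Psmb10, Psme1, Psme2, Erap1, Tap1 and Psmb9, and those before a second start of Irf1, held no match either. Capitals mark the matches, and Igtp and Irgm2, on neighboring stretches of chromosome 11, carry a GAS next to an ISRE in nearly the same setting.
Irf1: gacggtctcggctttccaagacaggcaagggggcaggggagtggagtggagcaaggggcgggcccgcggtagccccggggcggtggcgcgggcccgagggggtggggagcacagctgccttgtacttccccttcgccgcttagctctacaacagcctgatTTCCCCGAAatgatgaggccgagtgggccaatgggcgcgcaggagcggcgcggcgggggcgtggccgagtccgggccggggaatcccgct
Bst2: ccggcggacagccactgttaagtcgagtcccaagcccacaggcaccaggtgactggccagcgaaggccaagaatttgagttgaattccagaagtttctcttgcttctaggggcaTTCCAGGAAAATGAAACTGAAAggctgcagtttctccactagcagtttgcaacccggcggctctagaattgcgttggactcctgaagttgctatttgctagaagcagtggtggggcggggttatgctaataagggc
Igtp: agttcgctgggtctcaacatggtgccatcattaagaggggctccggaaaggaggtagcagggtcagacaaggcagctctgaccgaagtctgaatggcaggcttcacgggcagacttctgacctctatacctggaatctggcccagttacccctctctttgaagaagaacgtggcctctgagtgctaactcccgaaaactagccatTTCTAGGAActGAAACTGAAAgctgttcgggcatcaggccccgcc
Irgm2: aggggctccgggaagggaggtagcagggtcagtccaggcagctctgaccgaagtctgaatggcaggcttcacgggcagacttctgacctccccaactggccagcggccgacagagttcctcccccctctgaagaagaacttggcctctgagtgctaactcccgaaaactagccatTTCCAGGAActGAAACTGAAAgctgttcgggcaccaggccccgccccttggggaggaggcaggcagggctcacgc
Cyp1b1: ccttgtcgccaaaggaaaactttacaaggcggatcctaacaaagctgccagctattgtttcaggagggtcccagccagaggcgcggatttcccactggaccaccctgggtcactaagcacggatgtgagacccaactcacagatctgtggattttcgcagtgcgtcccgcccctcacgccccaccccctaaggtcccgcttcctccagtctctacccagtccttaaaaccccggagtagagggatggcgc
They lie at chr11:53769764-53770013 (plus strand, Irf1), chr8:71537473-71537722 (minus strand, Bst2), chr11:58199306-58199555 (plus strand, Igtp), chr11:58214727-58214976 (plus strand, Irgm2) and chr17:79715062-79715311 (minus strand, Cyp1b1), and none overlaps an annotated exon. In Irf1, 81 bases separate the GAS from the start.

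Of 11 tested genes of MHC class I and peptide loading, 8 were higher and 2 lower in sgUba1 than in NC cells with IFN-γ. Tap1, Tap2, Tapbp and B2m were among those higher, without a called interaction, and Calr, a chaperone of the peptide-loading complex, was among those lower (log2 difference -0.18, adjusted p = 0.0149). Tap1, the peptide transporter, measured 0.44 and 0.78 CPM in NC cells, 3.02 and 2.42 CPM with IFN-γ, 1.47 and 1.47 CPM in sgUba1 cells and 10.7 and 10.5 CPM with IFN-γ. Its interaction was 0.73 ± 0.33 (adjusted p = 0.226), while the stimulated lines differed by 1.96 on the log2 scale (adjusted p = 3.88e-06). Tap2 and Tapbp, its partners, rose in both lines, with interactions of 0.08 and 0.17 (adjusted p = 0.812 and 0.227), and stood higher in sgUba1 cells with and without IFN-γ. B2m, the light chain of MHC class I, measured 58.6 and 66.5 CPM in NC cells and 61.1 and 61.4 CPM with IFN-γ, against 85.4 and 83.5 and then 102 and 99.6 CPM in sgUba1 cells, with an interaction of 0.28 ± 0.08 that missed the threshold (adjusted p = 0.0689). The classical heavy chains H2-K1 and H2-D1 were not analysed here.

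The receptor and kinases did not pass the test of the interaction. Jak1 measured 129 and 132 CPM in NC cells, 141 and 144 CPM with IFN-γ, 146 and 141 CPM in sgUba1 cells and 144 and 145 CPM with IFN-γ (interaction -0.12 ± 0.06, adjusted p = 0.311). Ifngr1, a receptor chain, had an interaction of -0.04 ± 0.11 (adjusted p = 0.892), Jak2 of 0.04 ± 0.07 (adjusted p = 0.782) and Stub1, a ubiquitin ligase, of -0.21 ± 0.06 (adjusted p = 0.0895). These are RNA levels, and protein levels were not measured here.

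Ifngr1 and Jak2 were higher in sgUba1 cells whether stimulated or not. Ifngr1 measured 14.6 and 16.1 CPM in NC cells, 16.03 and 17.1 CPM with IFN-γ, 21.1 and 22.2 CPM in sgUba1 cells and 23.4 and 22.3 CPM with IFN-γ (log2 difference 0.49 without and 0.46 with IFN-γ, adjusted p = 6.95e-04 and 5.82e-04). For Jak2 the difference was 0.44 without and 0.48 with IFN-γ (adjusted p = 7.88e-05 and 2.07e-05). Jak1 was higher in sgUba1 cells without IFN-γ (0.14, adjusted p = 0.0339 in edgeR) and did not pass with it (0.02, adjusted p = 0.731). Stub1 did not pass without IFN-γ (0.08, adjusted p = 0.223 in edgeR) and was lower in sgUba1 cells with it (-0.13, adjusted p = 0.0428). Irf9, the DNA-binding subunit of the ISGF3 complex, had an interaction of 0.52 ± 0.14 that missed the threshold (adjusted p = 0.0584).

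The chemokines that draw T cells were barely expressed. Cxcl9 measured 1.07 and 0.98 CPM in NC cells, 0.79 and 0.52 CPM with IFN-γ, 0.62 and 0.73 CPM in sgUba1 cells and 0.74 and 0.87 CPM with IFN-γ (interaction 0.90 ± 0.44, adjusted p = 0.274). Cxcl10 did not pass the filter, with 3 and 0, 2 and 1, 1 and 3, and 17 and 6 counts in the same order of groups. Neither line therefore showed a response of these genes that the depth could resolve.

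Across the interferon lists, 213 genes were listed, 188 were in the table and 125 were tested. Of these, 11 had a called positive interaction and 3 a called negative one, where 0.663% and 3.97% of all genes tested were called. The median interaction was 0.09, against -0.03 for all genes. IFN-γ raised 30 of the 125 in NC cells and 41 in sgUba1 cells, against 470 and 186 of all 15530 genes. With IFN-γ, 65 of the 125 were higher in sgUba1 than in NC cells and 17 lower, against 2633 and 3486 of all genes. By role, the immunoproteasome and PA28 list had 3 called of 5 tested, all positive (Psmb10, Psme1 and Psme2), with a median of 0.56. The MHC class I and peptide-loading list had 2 of 11 (Erap1 and Tapbpl), the antiviral IFIT, OAS and MX list 2 of 23 (Bst2 and Parp9), and IRG GTPases 1 of 10 (Irgm1).

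The 6 tested genes of ISG15 conjugation, 3 guanylate-binding proteins, 10 nucleic acid sensors, 10 chemokines and cytokines and 10 cell death genes had 0 called interactions in edgeR, DESeq2 and limma-voom. An unadjusted p under 0.05 in edgeR was found for 4 of these 39, against 3342 of all 15530 genes tested. The brakes on cytokine signaling had 2 of 12 called, both negative. Ptpn1, the phosphatase PTP1B that acts on JAK kinases, measured 74.2 and 76.8 CPM in NC cells, 85.5 and 86.7 CPM with IFN-γ, 80.6 and 76.4 CPM in sgUba1 cells and 69.2 and 70.0 CPM with IFN-γ (interaction -0.36 ± 0.06, adjusted p = 0.0194). Pias3, a SUMO ligase, had an interaction of -0.50 ± 0.10 (adjusted p = 0.0259).

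Nectin2, a ligand of T cell and NK cell receptors, had an interaction of -0.60 ± 0.10 (adjusted p = 0.0184), from 33.1 and 34.9 to 41.6 and 43.0 CPM in NC cells and from 24.5 and 24.1 to 18.5 and 21.2 CPM in sgUba1 cells. Ptpn1, Pias3 and Nectin2 missed the threshold with GC offsets (adjusted p = 0.225, 0.208 and 0.129 in edgeR), where all 3 had an unadjusted p under 0.05. Cd274, the gene of PD-L1, stayed between 1.54 and 3.29 CPM in the 8 libraries, with an interaction of 0.57 ± 0.33 (adjusted p = 0.359).

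Several damped genes rose in NC cells and did not pass the test in sgUba1 cells. Cyp1b1, a cytochrome P450 and a classical target of the aryl hydrocarbon receptor, measured 9.14 and 9.12 CPM in NC cells and 48.4 and 46.7 CPM with IFN-γ, a 5.21-fold rise. In sgUba1 cells it measured 15.9 and 14.4 CPM, and 16.9 and 17.6 CPM with IFN-γ. The interaction was -2.20 ± 0.11 (adjusted p = 4.45e-06).

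Slc14a1, a urea transporter, went from 176 and 164 to 496 and 486 CPM in NC cells, a 2.89-fold rise, and from 107 and 108 to 108 and 114 CPM in sgUba1 cells (interaction -1.49 ± 0.07, adjusted p = 4.45e-06). Spon1, which encodes the extracellular matrix protein F-spondin, went from 73.1 and 79.2 to 134 and 129 CPM in NC cells and from 71.1 and 67.7 to 60.5 and 61.9 CPM in sgUba1 cells (interaction -0.97 ± 0.07, adjusted p = 2.14e-04). Foxq1, a forkhead transcription factor, went from 11.1 and 13.1 to 22.7 and 23.1 CPM and from 10.3 and 10.7 to 8.36 and 9.85 CPM (interaction -1.12 ± 0.14, adjusted p = 0.007). For these 4 genes the stimulated NC libraries stood alone above the other 6, and all 4 were called with GC offsets. Foxq1 lost its call in 5 of the 8 fits that left out 1 library, and Cyp1b1, Slc14a1 and Spon1 in none.

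In parental Myc-CaP cells given IFN-γ in another experiment of the series, the log2 change was 0.14 for Cyp1b1, -0.04 for Slc14a1, 0.11 for Spon1 and 0.07 for Foxq1 (adjusted p = 0.398, 0.694, 0.195 and 0.788 in edgeR). The aryl hydrocarbon receptor gene Ahr and its target Tiparp had interactions of -0.14 and -0.12 (adjusted p = 0.443 and 0.385). Ahr RNA was higher in sgUba1 cells, by 0.84 without and 0.71 with IFN-γ on the log2 scale (adjusted p = 7.92e-06 and 1.05e-05 in edgeR). Aldh3a1, another target, had an interaction of -1.18 at levels of at most 1.27 CPM (adjusted p = 0.243). The part of the receptor was not tested.

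Other damped genes with a negative interaction were Nckap1l, a regulator of the actin-nucleating WAVE complex, the glucuronosyltransferase gene Ugt1a6b, Gstp2, a glutathione transferase, and the pseudogene Gm6644, at -0.85 to -1.15. With GC offsets these 4 missed the threshold (adjusted p = 0.118, 0.0665, 0.195 and 0.124 in edgeR), with an unadjusted p under 0.05 for all 4, and near-identical relatives make the reads of Ugt1a6b, Gstp2 and Gm6644 uncertain. Padi2, a peptidylarginine deiminase, went from 421 and 438 to 637 and 632 CPM in NC cells and from 348 and 351 to 316 and 329 CPM in sgUba1 cells (interaction -0.68 ± 0.07, adjusted p = 8.90e-04), and was called with GC offsets.

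Genes classed as new with a negative interaction fell in sgUba1 cells, while their NC effect missed the threshold. The processed pseudogene Gm4202 had the largest change of those named by the rule (interaction -5.74, adjusted p = 0.0024). It went from 15.8 and 17.3 to 1.34 and 0 CPM in sgUba1 cells. In NC cells it went from 8.66 and 16.3 to 23.6 and 31.6 CPM. As a pseudogene it may share reads with its parent gene, so its level is uncertain. It was called with GC offsets (adjusted p = 0.0038). Kcnj4, a potassium channel, Pax2 and Tead3, transcription factors, Fkbp10, a collagen chaperone, Vps9d1, Sap25 and Tnrc18 had interactions of -0.57 to -1.01, and these 7 missed the threshold with GC offsets (adjusted p from 0.11 to 0.225 in edgeR), with an unadjusted p under 0.05 for all 7. This class held 148 genes without the offsets and 1 with them.

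Metallothionein genes rose in sgUba1 cells, and in NC cells Mt2 fell while Mt1 missed the threshold. Mt2, a metal-binding protein induced by zinc, glucocorticoid and cytokines, fell in NC cells from 24.2 and 25.6 to 17.9 and 16.6 CPM and rose in sgUba1 cells from 20.9 and 20.98 to 44.8 and 36.7 CPM (interaction 1.49 ± 0.13, adjusted p = 6.97e-04). Mt1 measured 52.97 and 50.2 CPM in NC cells and 41.7 and 42.4 CPM with IFN-γ (log2 change -0.29, adjusted p = 0.0572), and rose in sgUba1 cells from 42.7 and 44.0 to 64.6 and 54.3 CPM (interaction 0.75 ± 0.11, adjusted p = 0.011). In parental cells both rose (log2 0.78 and 0.54, adjusted p = 1.30e-05 and 7.55e-05). Both interactions were called with GC offsets.

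Some genes that low oxygen induces had a positive interaction too. Of 20 such genes tested, a list chosen after values were seen, 11 had a called interaction, all 11 positive, and 9 did not pass. Of all genes, 0.663% were called positive, but choosing the list with values known favors a high count. The 11 of 20 are therefore a description and no test of the list. The median over the 20 was 0.40. IFN-γ lowered 8 of the 20 in NC cells and raised 4 in sgUba1 cells, and 17 were lower in unstimulated sgUba1 than in unstimulated NC cells. Ero1l, the oxidase that drives disulfide formation in the endoplasmic reticulum, went from 180 and 179 to 131 and 134 CPM in NC cells and from 88.9 and 91.1 to 106 and 103 CPM in sgUba1 cells (interaction 0.65 ± 0.06, adjusted p = 8.90e-04). Bnip3, a mitophagy receptor, went from 128 and 114 to 97.3 and 95.2 CPM and from 47.9 and 47.0 to 61.2 and 60.3 CPM (interaction 0.69 ± 0.08, adjusted p = 0.0026).

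Ddit4, or REDD1, an inhibitor of mTORC1, went from 23.9 and 20.9 to 16.03 and 17.5 CPM and from 10.5 and 10.8 to 14.6 and 13.7 CPM (interaction 0.82 ± 0.12, adjusted p = 0.0144). For Ero1l, Bnip3 and Ddit4 the lines thus started apart and lay closer together with IFN-γ. Of the 20 genes, 6 were called with GC offsets, these 3 among them. With the offsets the rise of these 3 in sgUba1 cells missed the threshold (adjusted p = 0.138, 0.0553 and 0.0553), which moved them from the reversed to the damped class. Hif1a, the transcription factor of the oxygen response, did not pass the test (interaction -0.06, adjusted p = 0.713). Cell density and oxygen at harvest are not in the labels, and their part was not tested.

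**Figure D5:**
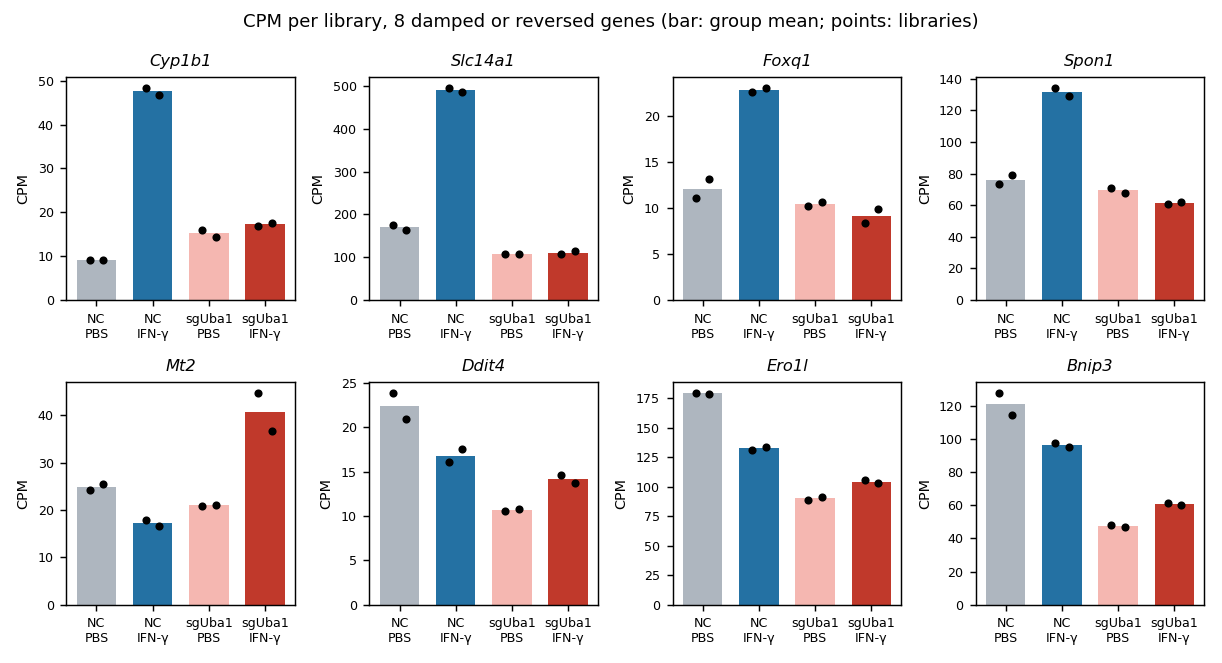
Level in CPM (y axis, each panel on its own scale from 0) of 4 damped genes and 4 classed as reversed without GC offsets in the 4 groups, with bars for the group mean and points for the 2 libraries. In the top row the stimulated NC libraries stand alone, at 48.4 and 46.7 CPM for Cyp1b1, and in the bottom row NC cells fall and sgUba1 cells rise.

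The remaining damped genes with a positive interaction named by the rule fell in NC cells and did not pass the test in sgUba1 cells: the histone gene Hist1h2bq, the long noncoding RNA Gm34425, Dcdc2a, a doublecortin family gene, Alpk1, an innate sensor kinase, the serotonin receptor gene Htr1d, Vmn1r6 and the pseudogene Mrgprc2-ps, at 0.85 to 1.65. With GC offsets Gm34425 and Dcdc2a were still called. Hist1h2bq rests on libraries that lay far apart, at 72.7 and 34.0 CPM in stimulated sgUba1 cells.

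Other pathway lists are to be read against the 0.663% of all genes called positive and 3.97% called negative. The TNF and NF-kB early response list had 6 of 34 called, all negative (Ier2, Nfkb2, Plaur, Ptgs2, Rela and Tnfaip2), with a median of -0.18. Ptgs2, the inducible cyclooxygenase, was the 1 of the 6 also called with GC offsets (interaction -0.40 without and -0.56 with them, adjusted p = 0.0144 and 0.0038). Rela, the p65 subunit of NF-kB, went from 95.3 and 100.2 to 108 and 102 CPM in NC cells and from 101 and 94.8 to 81.2 and 84.6 CPM in sgUba1 cells (interaction -0.34 ± 0.07, adjusted p = 0.0315), and was not called with GC offsets (adjusted p = 0.497). The NRF2 list had 4 negative and 1 positive of 18, the cell cycle list 4 negative of 36, the unfolded protein response list 3 negative of 18, the integrated stress response list 2 positive of 21 (Ddit4 and Slc7a11) and the proteasome list 1 negative of 31. Among the called genes of these lists, from NRF2 to the proteasome, Ddit4 alone was also called with GC offsets.

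Parental Myc-CaP cells with and without IFN-γ, sequenced as part of an experiment on TAK-243, a small-molecule inhibitor of UBA1 used at 50 nM, gave an outside reference that shares no library with the comparison above. The study states the same dose and duration of IFN-γ for both experiments, these libraries were shallower (12860987 to 16793889 counts), and the values are set side by side, the parental ones from a fit of all 16 cell libraries. IFN-γ changed 3450 of 15708 genes there (22%), and 918 with GC offsets. Of the 50 tested genes that rose more than 2-fold in parental cells, 39 had a positive interaction, against 6837 of all 15127 genes tested in both fits. Their median was 0.67, 8 were called positive and 1, Ugt1a6b, negative.

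These 50 genes had a median log2 rise of 0.76 in NC cells and 1.65 in sgUba1 cells. With IFN-γ, 36 of the 50 were called higher in sgUba1 than in NC cells and 4 lower, against 2606 and 3478 of the 15127. The gain in CPM was larger in sgUba1 cells for 42, against 6879.

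For the amplified genes the parental response lay near that of sgUba1 cells. Irf1 rose by 1.61 on the log2 scale in parental cells, against 0.64 in NC and 1.61 in sgUba1 cells. Psmb10 rose by 1.71, against 0.83 and 1.66. Ido1 rose in parental cells from 11.8 and 11.7 to 33.8 and 32.7 CPM, from a start near that of NC cells to a level above both lines.

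The difference in the IFN-γ effect between NC and parental cells was called for 596 genes in all (3.79%) and for 7 of the 8 amplified genes, Erap1 being the other. The difference between sgUba1 and parental cells was called for 3367 genes in all (21.4%) and for 2 of the 8, Irgm1 (0.48) and Erap1 (0.40), both larger in sgUba1 cells. The median log2 rise of the 8 genes was 0.60 in NC, 1.63 in sgUba1 and 1.55 in parental cells. For the amplified genes, then, the NC line stood apart from the parental cells more than the sgUba1 line did. Of the 31 positive genes called with and without GC offsets, 28 had an sgUba1 effect nearer to the parental one, as did 16 of the 23 negative ones, against 36.7% of all genes. Among all 617 negative genes the share was 10.5%. The parental effect followed GC content too, with a median from -0.22 in the lowest decile to 0.25 in the highest. That is the direction of NC cells and opposite to that of sgUba1 cells. No GC offsets entered these comparisons with parental cells, so their counts and shares include that trend.

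The interaction of TAK-243 with IFN-γ in parental cells was called for 21 genes (0.134%), and the sgUba1 and TAK-243 interactions differed for 61 genes (0.388%). Irf1 had a TAK-243 interaction of 0.07 (adjusted p = 0.861), which differed from the sgUba1 interaction by 0.93 (adjusted p = 0.0026). Ido1 and Erap1 were called under TAK-243 too, at 0.74 and 0.59 (adjusted p = 0.0368 for both). The inhibitor was given to the parental line and the guide acted in a line grown from a sorted cell, so agent, line and experiment cannot be told apart.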

How the data were processed

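RNA from cultured Myc-CaP cells was sequenced by the authors, with poly-A selection and a KAPA HyperPrep kit per the labels and rRNA depletion per the study's methods, a difference that was not resolved. The authors quantified reads with kallisto, and mm10 is named in the submitters' processing notes. The deposited tables hold expected counts per gene and TPM for 40077 genes in 51 libraries; 31.2% of the expected counts used here were not whole. No other step before deposit is given in the sources used here.

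The expected counts were rounded. Genes passing filterByExpr were tested with edgeR 4.0.16 (R 4.3.3; TMM factors, quasi-likelihood F test, Benjamini-Hochberg threshold 0.05) in 1 fit of the 8 libraries, or of all 16 cell libraries for the parental and TAK-243 contrasts. Standard errors were taken as the log2 value over the square root of F. CPM values used TMM-scaled library sizes. The design had assumed whole counts, or log values where files held none, and the count test was kept for rounded expected counts. Scripts were tested on simulated data. Alternatives were DESeq2 1.42.0, limma-voom and limma 3.58.1 on log2(TPM + 1) or log2(TPM + 0.1), RLE factors, other filters, a replicate block, each library left out, and GC offsets (a spline with 6 degrees of freedom against the GC content of the longest GENCODE M21 transcript, known for 15507 of the genes tested), which were added after seeing the data.

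Genes named are Uba1, those the paper names, up to 8 per class and direction with the largest interaction whose mean log2 CPM was 1 or more and whose 4 stimulated-minus-unstimulated library differences did not overlap between lines, and called members of the interferon lists. Igtp, Gbp2, Irgm2, Tap1, Tap2, Tapbp, B2m, Jak2, Irf9, Cd274, Ahr, Tiparp, Aldh3a1, Padi2, Rela and the low-oxygen genes were named after their values were seen. The experiment, the members of all lists and the tests were chosen with earlier results of these data known. Promoter sequences are RefSeq's for GRCm38.p6, guide positions were matched to GRCm38, some genes, 1 of the amplified genes among them, are not reported here, and libraries of the other 35 samples were not used.

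Total expected counts were 26768564 to 38032395 per library, and 3 counts, taken as the floor, correspond to 0.0822 to 0.111 CPM. Floors cover counting error only. Between the 2 libraries of a group, counts differed beyond sampling noise in each group (chi-square per degree of freedom 2.30 to 18.0), most in unstimulated NC cells.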

Additional observations from a re-analysis of the deposited data

Results flagged for a closer look

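The change in the IFN-γ effect by sgUba1 differed from the change by TAK-243 in parental cells, in edgeR's test of that difference within 1 fit of 16 libraries, for 61 genes, 35 with a positive difference and 26 with a negative one. Among them were 10 of the genes named by the rule and reported here. Ero1l, Bnip3, Ddit4, Padi2, Anpep, Ptgs2 and Tgtp1, named above on other grounds, were also among the 61. Given as the sgUba1 minus the TAK-243 interaction on the log2 scale, the difference was 0.93 for Irf1 and 0.99 for Psme1 among interferon genes. It was 1.62 for Mt2 and 0.90 for Mt1, the metallothioneins, 1.71 for Gm7324 and 0.72 for Cox6c. Among genes damped in sgUba1 cells it was -1.84 for Cyp1b1, -1.45 for Slc14a1, -1.30 for Foxq1 and -1.02 for Spon1. Each experiment had 2 libraries per group, no library is shared, and line, agent and experiment cannot be told apart.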

How the results depend on the processing

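With 2 libraries per group, the numbers called moved widely. The 720 genes called (103 positive, 617 negative) became 617 (107, 510) with DESeq2, 750 (104, 646) with limma-voom, 414 (94, 320) with RLE factors, 1487 (286, 1201) without a filter beyond 1 count, 365 (123, 242) with at least 10 counts in every library, 1013 (306, 707) in a fit of all 16 cell libraries, 27 (9, 18) at an adjusted p under 0.01, 12 (10, 2) on log2(TPM + 1), 4 (2, 2) on log2(TPM + 0.1) and 58 (35, 23) with GC offsets. Leaving out 1 library gave 14 to 2622 (6 to 551 positive, 7 to 2071 negative), and 12 to 1381 with GC offsets (7 to 389, 5 to 992). Counts rose without either unstimulated NC library and fell without any other one; the cause was not tested.

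The genes with an IFN-γ effect, 603 in NC and 443 in sgUba1 cells, were 395 and 727 with DESeq2, 292 and 408 with RLE factors, 1460 and 1415 without a filter, 180 and 560 with at least 10 counts, 719 and 1445 in the fit of 16, 18 and 34 on log2(TPM + 1), 30 and 33 on log2(TPM + 0.1), 58 and 43 at 0.01, 214 and 72 with GC offsets, 35 to 2721 and 39 to 2608 when 1 library was left out and 15 to 2697 and 37 to 1781 when that was done with GC offsets. The parental effect, 3450 genes, was 918 with GC offsets. Amplified, damped or reversed, and new genes (8, 244 and 181) were 6, 151 and 274 with DESeq2, 6, 117 and 119 with RLE factors, 15, 590 and 569 without a filter, 6, 78 and 151 with at least 10 counts, 9, 309 and 497 in the fit of 16, 5, 2 and 5 on log2(TPM + 1), 0, 2 and 2 on log2(TPM + 0.1), 4, 13 and 3 at 0.01, and 5, 35 and 11 with GC offsets. Leaving out 1 library gave 3 to 18, 7 to 1145 and 2 to 1088, and with GC offsets 1 to 12, 4 to 548 and 3 to 665.

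Same-numbered libraries did not deviate together (6 correlations, 0.0018 to 0.0737), so the numbers do not pair the samples. With the replicate block, 842 genes were called (127, 715), 701 of them among the 720, with 768 genes for the sgUba1 effect and 287 new genes, and 52 (29, 23) with GC offsets, where the NC and sgUba1 effects held 229 and 204 genes and the classes 5, 32 and 12.

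Of the 50 genes induced in parental cells, 37 to 43 had a positive interaction in the alternatives run, except that 24 did where at least 10 counts were required, a filter that leaves fewer of them. Over 28 alternatives, 1343 values of the 48 named genes gave 736 with the same call and sign, 578 that lost the call, 9 that gained it and 20 that changed sign. The changes of sign were those of Ifngr1, which took 0.0126 with at least 10 counts, 0.00295 in the fit of 16 and -0.11 to 0.0567 with 1 library left out (GC offsets included), and Stub1, which took 0.0563 with GC offsets, 0.0556 with the block added and -0.23 to 0.11 with 1 library left out. The interaction of Gm4202 ran from -13.2 to -4.71. Ifngr1 was not called in any of these fits, Uba1 gained the call in 7, and Stub1 was called without NC replicate 1 (-0.23, adjusted p = 0.022) and without NC replicate 2 (-0.19, adjusted p = 0.0464). Ido1, Mt2, Cyp1b1 and Slc14a1 were called in all 28; Irf1, Irgm1 and Spon1 missed the threshold on log2(TPM + 1) and log2(TPM + 0.1) (adjusted p = 0.0501 and 0.0806).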

Other observations

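Tgtp1, an IRG GTPase near 0 in unstimulated cells, went the other way from most interferon genes in the comparison with TAK-243: its TAK-243 interaction was 3.26 (adjusted p = 0.0028) and the sgUba1 interaction minus that was -3.40 (adjusted p = 0.0383), with 3 and 2 counts in unstimulated NC cells. Among the 61 genes that differed between the experiments were also replication-dependent histone genes such as H2bc18 (0.86, adjusted p = 1.19e-05) and H4c1 (0.72, adjusted p = 0.014), and the low-oxygen genes Ero1l (0.995, adjusted p = 2.22e-06), Bnip3 (0.87, adjusted p = 1.65e-04), Plod2 (0.78, adjusted p = 0.0011) and Ddit4 (1.16, adjusted p = 0.0027), whose TAK-243 interactions were negative, at -0.14 to -0.31. Of these 4, the TAK-243 interaction was called for Ero1l (-0.31, adjusted p = 0.0437).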
